A study of Mus musculus with 12 samples.

Results

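The genes described here are 47 genes of the lysosome, the compartment in which cells break down proteins, sugars and lipids. They were taken by symbol from the count table, in which all 47 were found among 53801 genes. They comprise 10 cathepsins and other proteases, 10 glycan hydrolases, 3 sulfatases, 8 lipid hydrolases, lipid carriers and a thioesterase, 9 membrane proteins, and 7 parts of the proton pump. Grn, the precursor of the granulins, is counted in the lipid group, although it is not itself a lipid enzyme or carrier. RNA-seq was performed on mouse eosinophils, granulocytes rich in cationic granule proteins, with 3 libraries in each of 4 groups. The Atg5-knockout mice were Atg5 flox/flox eoCre Il5tg, and the control mice were eoCre Il5tg with no floxed Atg5. Eosinophils came from the bone marrow or the blood of each genotype. Both genotypes carried 1 eoCre allele, a knock-in of Cre at the eosinophil peroxidase gene Epx, and the transgene Tg(Cd3d-Il5)NJ.1638Nal, which drives interleukin 5 from a T cell promoter and greatly raises eosinophil numbers. The mice therefore model eosinophils under high interleukin 5, and Cre acts only once a cell has begun to use Epx. The cells were isolated by depleting other cells through surface proteins that included CD8α, CD90.2 and Ly6G. For blood, a density step and water lysis of red cells were included. The age of the animals used for RNA-seq was not given in the sources used here.

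Lysosomal enzymes are made as precursors, tagged with mannose 6-phosphate and carried to the lysosome, where an acid interior activates them. The acid comes from the vacuolar proton pump, whose V1 sector in the cytosol splits ATP and whose V0 sector in the membrane carries protons. Autophagy, which needs ATG5, delivers its cargo to lysosomes by fusion of autophagosomes with them. Many lysosomal genes carry the motif CACGTG near their start, the core of the site bound by TFEB and related factors. In eosinophils the secretory granules share features with lysosomes, and several lysosomal enzymes are stored in granules of leukocytes.

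Total counts ran from 18885052 to 30270166 per library, and the least counted member, Sgsh, had 1817 counts over the 12 libraries. Levels are CPM, the counts of a gene relative to the library total after TMM scaling, and a mean ± SD is over 3 libraries. Eosinophil markers were high in every library, and the 10 listed genes summed to between 72200 and 94500 CPM in bone marrow and between 17500 and 47300 CPM in blood. Control blood replicate 1 stood apart, with 170000 CPM on 12 red cell genes against 6010 and 16800 CPM in the other control blood libraries. Blood replicate 1 of both genotypes also had the most B cell RNA, 1530 CPM in control and 2680 CPM in Atg5-knockout mice, against at most 591 CPM in the other blood libraries. Bone marrow Atg5 was 42.5 ± 2.62 CPM (SD, n = 3) without and 31.95 ± 1.74 CPM (SD, n = 3) with the floxed alleles, a log2 fold change of -0.44 (SE 0.11, edgeR adjusted p = 0.157). The blood levels were 48.1 ± 9.62 CPM in control and 47.2 ± 9.12 CPM in Atg5-knockout mice (SD, n = 3 each). Since reads from every exon were added up, loss of a single floxed stretch cannot be read from these levels. The authors examined Atg5 RNA by qPCR and ATG5 protein by immunoblot in bone marrow and blood eosinophils of these genotypes. They refer to their earlier work for the lack of autophagy in Atg5-knockout eosinophils.

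The members differed widely in level. Per kilobase of exon, Psap, the precursor of the saposins that help degrade sphingolipids, was the highest in control bone marrow with 793 CPM per kb. Laptm5, a lysosomal membrane protein of blood cells, followed with 358 CPM per kb, and Ctsd, the aspartic protease cathepsin D, with 337 CPM per kb. Sgsh, a heparan sulfatase, was the lowest with 1.14 CPM per kb, and Mcoln1, the lysosomal calcium channel TRPML1, had 1.79 CPM per kb. Summed over the 47 members, the level was 13020 ± 678 CPM (SD, n = 3) in control and 12870 ± 458 CPM (SD, n = 3) in Atg5-knockout bone marrow. In blood the sums were 20630 ± 1860 and 19550 ± 888 CPM (SD, n = 3). The lowest blood library, at 18540 CPM, was above the highest bone marrow library, at 13800 CPM.

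Promoter sequences are shown for 5 members that differ in the motif and in their behaviour between tissues. They are the 250 bases before the start site that RefSeq gives on GRCm38.p6, and each CACGTG is in capitals. Gm2a and Ctss were among the members that differed most between tissues and hold no copy. Lgmn and Ctsa were also among those members and are not shown, and each holds CACGTG in 1 of its 2 promoter windows. Lamp1 holds 4 copies and Atp6v0b holds 2, and both were called between tissues in Atg5-knockout mice alone. Atp6v0b just missed the threshold in control mice (edgeR adjusted p = 0.0542). Glb1 holds 1 copy and was called in neither genotype. The windows are chr11:55097735-55097984 (+) for Gm2a, chr3:95526536-95526785 (+) for Ctss, chr8:13158911-13159160 (+) for Lamp1, chr4:117887330-117887579 (-) for Atp6v0b and chr9:114400828-114401077 (+) for Glb1.
Gm2a: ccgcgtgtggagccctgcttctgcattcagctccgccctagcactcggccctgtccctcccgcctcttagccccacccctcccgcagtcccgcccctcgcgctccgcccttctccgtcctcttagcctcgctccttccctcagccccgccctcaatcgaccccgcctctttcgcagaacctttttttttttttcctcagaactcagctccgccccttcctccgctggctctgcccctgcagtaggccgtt
Ctss: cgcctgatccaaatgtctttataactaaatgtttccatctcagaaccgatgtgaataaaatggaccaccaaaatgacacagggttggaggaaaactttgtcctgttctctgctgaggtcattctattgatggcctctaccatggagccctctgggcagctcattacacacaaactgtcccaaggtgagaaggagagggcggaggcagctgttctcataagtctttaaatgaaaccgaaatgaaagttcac
Lamp1: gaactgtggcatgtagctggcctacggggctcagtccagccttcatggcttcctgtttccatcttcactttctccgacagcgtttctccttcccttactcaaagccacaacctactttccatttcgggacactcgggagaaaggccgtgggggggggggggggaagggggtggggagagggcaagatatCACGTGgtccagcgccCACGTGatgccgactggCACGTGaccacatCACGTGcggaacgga
Atp6v0b: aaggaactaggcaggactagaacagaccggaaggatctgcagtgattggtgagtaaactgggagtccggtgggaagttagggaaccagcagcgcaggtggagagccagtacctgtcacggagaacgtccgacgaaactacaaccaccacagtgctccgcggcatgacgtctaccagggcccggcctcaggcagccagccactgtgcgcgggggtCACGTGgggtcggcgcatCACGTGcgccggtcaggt
Glb1: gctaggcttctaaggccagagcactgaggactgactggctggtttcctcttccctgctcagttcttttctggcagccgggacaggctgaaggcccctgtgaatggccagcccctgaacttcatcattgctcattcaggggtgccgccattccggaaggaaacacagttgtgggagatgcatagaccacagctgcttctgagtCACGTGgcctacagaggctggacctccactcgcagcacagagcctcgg

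A RefSeq promoter, from 250 bases before to 50 after the start, was found for 41 of the 47 members, in 47 windows. CACGTG, which reads the same on both strands, was in 15 of these 47 windows (31.9%) and in 2349 of all 32851 windows (7.15%). The 15 members with it are Ctsa, Ctsd, Ctsl, Lgmn, Gaa, Gla, Glb1, Naglu, Sgsh, Lamp1, Mcoln1, Cln3, Atp6v0d1, Atp6v0b and Atp6v1a. Of the members higher in blood in both genotypes (given further on), 3 of the 14 with a window had it, and of those higher in Atg5-knockout mice alone 4 of 8. Of the members called lower in either genotype 2 of 4 had it, and of those called in neither 6 of 15. A match describes the letters in the window and not a bound site.

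Eosinophils from blood were compared with those from bone marrow in each genotype, which sets circulating cells beside a population that includes their precursors. In control mice 16 of the 47 members were higher in blood and 1, Arsb, was lower at an adjusted p under 0.05. Over all 13669 genes tested, 16.2% were called higher and 18% lower, and the median log2 fold change was 0.49 over the members and -0.00 over all genes. In Atg5-knockout mice 24 members were higher and 4 lower, where 23.5% of 13853 genes were called higher and 24.1% lower, with medians of 0.37 and -0.01. The 16 members called higher in control mice were called higher in Atg5-knockout mice too, and Arsb was lower in both. A further 8 members were called higher and 3 lower in Atg5-knockout mice alone, and 19 in neither. Calls in 1 genotype alone do not show that the genotypes differ, and the test of that difference is given at the end. All 6 blood libraries were above all 6 bone marrow libraries for 16 members and below them for 2, against 16.2% and 19.5% of the 14712 genes tested over the 12 libraries.

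**Figure D1:**
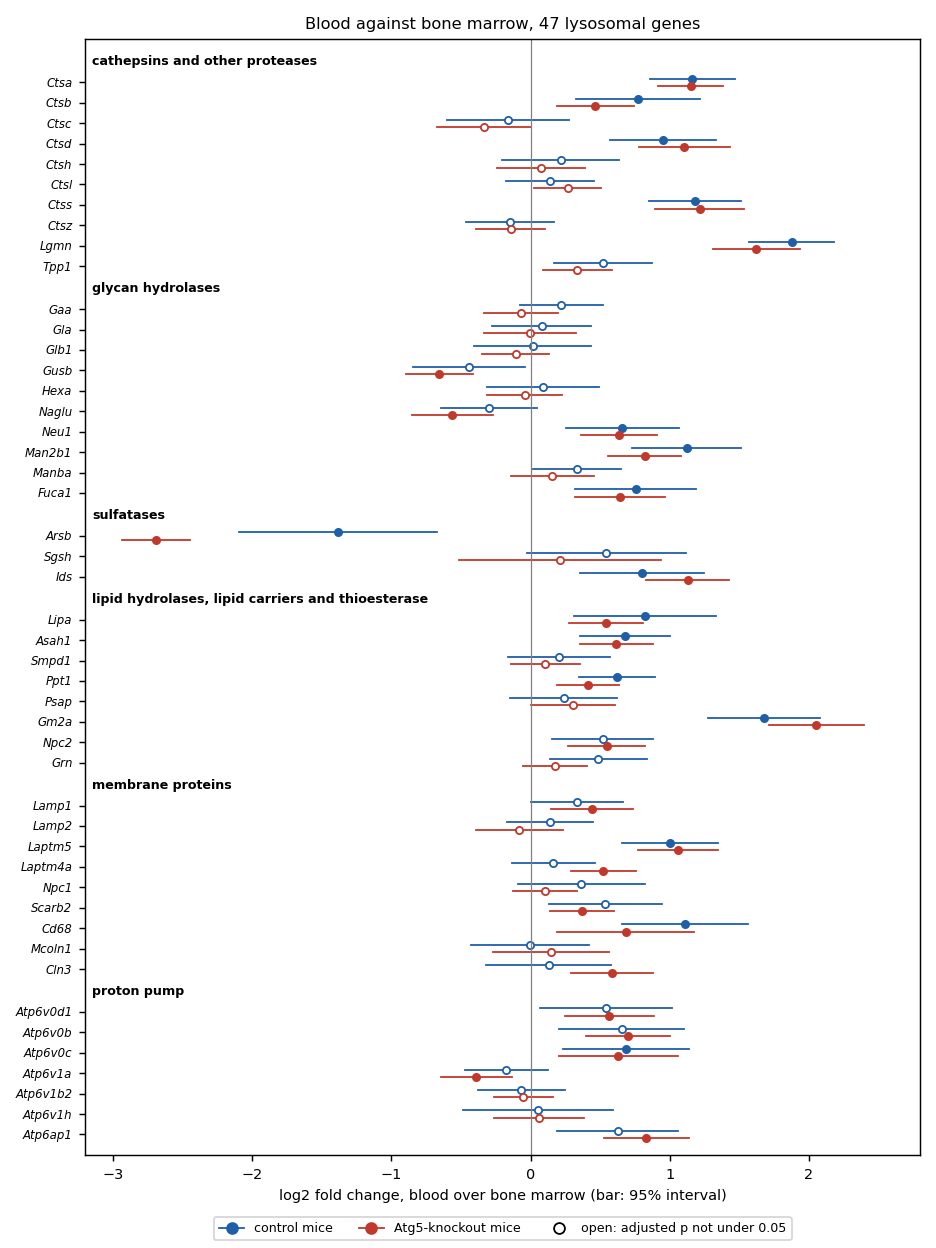
Log2 fold change of blood over bone marrow (horizontal axis) for the 47 lysosomal genes, by role, in control (blue) and Atg5-knockout mice (red), with 95% intervals and filled points where the adjusted p was under 0.05. Lgmn and Gm2a lie farthest to the right, Arsb lies alone on the far left, and the V1 members of the pump lie between -0.39 and 0.06.

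The split was kept with RLE factors and changed with library size alone. With RLE factors in place of TMM factors 21 members were higher and 1 lower in control mice. There 17.2% of genes were called higher and 16.9% lower. In Atg5-knockout mice 25 members were higher and 4 lower, with 23.9% and 23.6% of genes. All members called with TMM factors were among these. With library size alone in place of TMM factors the median of all genes moved to -0.31 in control and -0.24 in Atg5-knockout mice. The members called were then 8 higher and 4 lower in control mice, where 9.57% of genes were called higher and 28.6% lower, and 15 higher and 5 lower in Atg5-knockout mice, where 16.3% and 31.3% of genes were. Gusb, Naglu and Atp6v1a joined Arsb among the lower members of control mice. Without control blood replicate 1, the library with the most red cell RNA, 23 members were higher and 1 lower, with 19.9% of all genes higher and 22.1% lower, and 14 of the 16 were among the 23. Atp6v0c and Lipa were not. Leaving out bone marrow replicate 1, 2 or 3 of the control mice left 10, 8 and 9 members higher, with 9.87%, 9.34% and 8.21% of all genes higher, so that calls fell over all genes too. The 10 include Tpp1, which was not among the 16, and Arsb was no longer called without replicate 1. In Atg5-knockout mice 14 of the 24 members were still called higher without bone marrow replicate 2, where 15.5% of all genes were, and 16 without replicate 1 or 3, where 16.3% and 17.4% were.

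Marker genes moved with tissue as well. The 8 genes of cycling cells summed to between 1210 and 1720 CPM in bone marrow and between 44.1 and 120 CPM in blood, and all 8 were lower in blood in both genotypes. Of the 10 eosinophil genes, 6 were lower in blood in each genotype, among them Epx with a mean of 4030 CPM in control bone marrow and 625 CPM in control blood, and 2 were higher. The 12 neutrophil genes summed to between 10400 and 13700 CPM in bone marrow and between 4480 and 8050 CPM in blood, and 6 were lower in blood in control and 8 in Atg5-knockout mice. Among them Elane and Mpo, proteins of the granules of immature neutrophils, had means of 521 and 1154 CPM in control bone marrow and of 0.928 and 7.96 CPM in control blood. The list did not fall as a whole, and 1 gene was called higher in Atg5-knockout mice. Ngp, Ly6g and Mmp8 had means of 5000, 44.5 and 87.1 CPM in control bone marrow and 4940, 42.1 and 106 CPM in control blood. Mmp9 had 372 CPM in Atg5-knockout bone marrow and 738 CPM in Atg5-knockout blood. The 14 genes of monocytes and macrophages, cells rich in lysosomes, summed to between 1880 and 2280 CPM in bone marrow and between 1720 and 2160 CPM in blood. Within that list Csf1r, Cd14 and Cx3cr1 were among the genes higher in blood in both genotypes, Csf1r with a mean of 877 against 274 CPM in control mice. Vcam1 and C1qa were lower in blood, and Mertk had no count in control blood. C1qa and Mertk were low throughout, with means of 0.873 and 0.139 CPM in control bone marrow. Means of Ly6c2 and Ccr2 were also lower in control blood, 814 against 1090 CPM and 166 against 309 CPM. Of 13 genes of this list tested, 5 were called higher and 2 lower in control mice, and 4 and 4 in Atg5-knockout mice. Over all genes 16.2% and 18% were called higher and lower in control mice, and 23.5% and 24.1% in Atg5-knockout mice. The part of other cells and of cell maturity in the differences between tissues was not tested, and in these bulk samples fewer cells of a type and less RNA per cell cannot be told apart.

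Among the proteases, 5 of 10 were higher in blood in each genotype, the same 5, and none was lower. Of all genes 16.2% were called higher in control and 23.5% in Atg5-knockout mice. Lgmn, the asparaginyl endopeptidase legumain that trims other lysosomal enzymes (chromosome 12, 102394084 to 102439813), showed the largest difference in control mice. It had 15.2, 13.6 and 13.9 CPM in control bone marrow and 51.3, 51.2 and 55.1 CPM in control blood. In Atg5-knockout mice it had 18.4, 23.3 and 19.9 CPM in bone marrow and 73.6, 58.0 and 56.1 CPM in blood. The tissues did not overlap in either genotype, and the log2 fold change was 1.87 (SE 0.16, edgeR adjusted p = 5.85e-05) in control and 1.62 (SE 0.16, edgeR adjusted p = 7.69e-05) in Atg5-knockout mice.

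Ctss, the cysteine protease cathepsin S of antigen-presenting cells (chromosome 3, 95526786 to 95556403), had 162, 159 and 156 CPM in control bone marrow and 416, 373 and 302 CPM in control blood. The Atg5-knockout libraries had 186, 200 and 159 CPM in bone marrow and 496, 412 and 343 CPM in blood. Blood was again above bone marrow in each genotype, with log2 fold changes of 1.18 (SE 0.17, edgeR adjusted p = 0.00106) and 1.21 (SE 0.16, edgeR adjusted p = 0.000429) in control and Atg5-knockout mice. Its promoter shown above has no CACGTG. Ctsa, the carboxypeptidase cathepsin A that also protects the sialidase NEU1 and the β-galactosidase GLB1 (chromosome 2, 164832873 to 164841032), had 166, 183 and 170 CPM in control bone marrow and 346, 394 and 430 CPM in control blood. In Atg5-knockout mice the values were 162, 143 and 160 CPM and 359, 341 and 319 CPM. The log2 fold change was 1.16 (SE 0.16, edgeR adjusted p = 0.000813) in control and 1.15 (SE 0.12, edgeR adjusted p = 0.000103) in Atg5-knockout mice, nearly the same size in both. Exons of Ctsa share 495 bases with Pltp and those of Ctsb 774 with Fdft1, and reads in shared bases were not counted.

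Ctsd rose from 793 ± 58.0 to 1546 ± 307 CPM (SD, n = 3) in control mice, a log2 fold change of 0.95 (edgeR adjusted p = 0.00604), and by 1.103 on the log2 scale (edgeR adjusted p = 0.000783) in Atg5-knockout mice. Ctsb, the cysteine protease cathepsin B, had 721 CPM in control blood replicate 1 and 419 and 435 CPM in the other control blood libraries, all above the 283 to 330 CPM of control bone marrow (log2 fold change 0.77, edgeR adjusted p = 0.0295). The other cathepsins were not called in either genotype. Ctsc, which activates the serine proteases of granules, had log2 fold changes of -0.16 and -0.34 in control and Atg5-knockout mice. Ctsh had 0.22 and 0.07, Ctsl 0.14 and 0.27, and Ctsz -0.15 and -0.14. Tpp1, a tripeptidyl peptidase, had 0.52 and 0.34 with all blood libraries above all bone marrow libraries of the same genotype, and its adjusted p of 0.052 and 0.054 (edgeR) just missed the threshold.

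**Figure D2:**
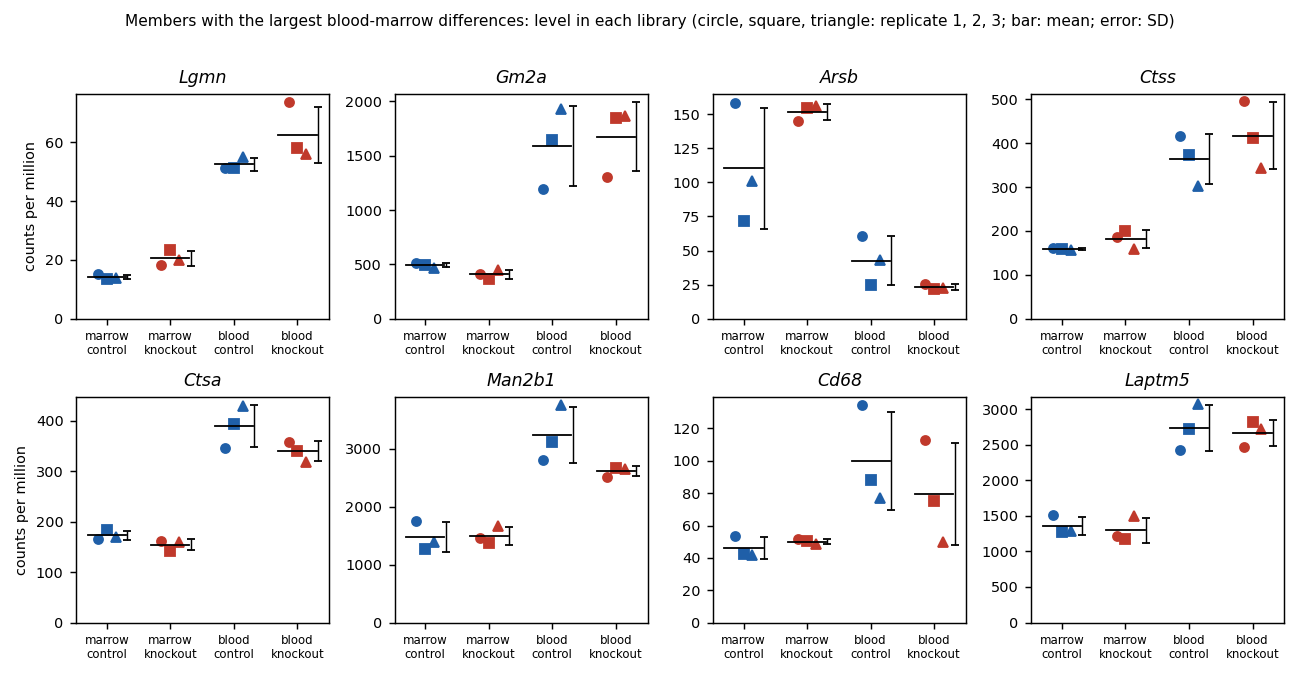
Level in CPM (vertical axis, from 0) in each library for the 8 called members with the largest differences between control blood and control bone marrow and no overlap, in the 4 groups on the horizontal axis. Points are libraries with a shape for each replicate number, the line is the mean and the bar the SD of 3 libraries. Arsb alone is lower in blood, and Cd68 is the only one of them whose Atg5-knockout tissues overlap.

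Among the 10 glycan hydrolases 3 were higher in blood in each genotype and Gusb and Naglu were lower in Atg5-knockout mice. In Atg5-knockout mice that was 30% higher and 20% lower, near the 23.5% and 24.1% of all genes. In control mice 30% were higher, against 16.2% of all genes. Man2b1, the lysosomal α-mannosidase (chromosome 8, 85083270 to 85098282), had 1759, 1270 and 1389 CPM in control bone marrow and 2808, 3118 and 3758 CPM in control blood. The Atg5-knockout libraries had 1451, 1366 and 1670 CPM and 2514, 2669 and 2656 CPM. Its log2 fold change was 1.12 (SE 0.20, edgeR adjusted p = 0.00332) in control and 0.82 (SE 0.13, edgeR adjusted p = 0.00119) in Atg5-knockout mice, and the tissues did not overlap. It took the largest part of the group, whose sum was 2387 ± 257 CPM (SD, n = 3) in control bone marrow and 4323 ± 711 CPM (SD, n = 3) in control blood. Neu1, the lysosomal sialidase, rose by 0.66 and 0.63 on the log2 scale (edgeR adjusted p = 0.037 and 0.0053), and Fuca1, an α-fucosidase, by 0.75 and 0.64 (edgeR adjusted p = 0.0283 and 0.0109).

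Gusb, the β-glucuronidase, went the other way. It had 172, 156 and 165 CPM in control bone marrow and 86.3, 144 and 136 CPM in control blood, a log2 fold change of -0.44 that was not called (SE 0.21, edgeR adjusted p = 0.127). In Atg5-knockout mice it had 187, 176 and 168 CPM in bone marrow and 97.9, 115 and 120 CPM in blood, a log2 fold change of -0.66 (SE 0.12, edgeR adjusted p = 0.0024), and all 6 blood libraries were below all 6 bone marrow libraries. Naglu, which removes N-acetylglucosamine from heparan sulfate, had -0.30 in control (edgeR adjusted p = 0.22) and -0.56 in Atg5-knockout mice (edgeR adjusted p = 0.0129). The 5 members Gaa, Gla, Glb1, Hexa and Manba, which act on glycogen, galactosides, gangliosides and mannosides, were not called and had log2 fold changes between -0.11 and 0.33.

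Of the 3 sulfatases Arsb was lower and Ids higher in blood in both genotypes. Arsb encodes arylsulfatase B, which acts on dermatan and chondroitin sulfate (chromosome 13, 93771630 to 93943016). It had 158, 71.6 and 101 CPM in control bone marrow and 60.4, 24.6 and 42.8 CPM in control blood. In Atg5-knockout mice it had 145, 154 and 156 CPM in bone marrow and 25.6, 22.0 and 22.2 CPM in blood. Of its 6037 exon bases 1948 are shared with a gene on the other strand that had no count. The control libraries were spread widely in both tissues and the Atg5-knockout libraries narrowly. The log2 fold change of blood over bone marrow was -1.38 (SE 0.36, edgeR adjusted p = 0.0184) in control and -2.69 (SE 0.12, edgeR adjusted p = 1.23e-06) in Atg5-knockout mice, a level 6.45-fold lower in Atg5-knockout blood. In control mice the value was -1.04 (edgeR adjusted p = 0.0752) without bone marrow replicate 1. Ids, the iduronate sulfatase, had 19.4, 19.4 and 28.6 CPM in control bone marrow and 49.4, 33.4 and 35.7 CPM in control blood, a log2 fold change of 0.80 (SE 0.23, edgeR adjusted p = 0.026), and 1.13 (SE 0.15, edgeR adjusted p = 0.000422) in Atg5-knockout mice. Sgsh was not called, with 0.54 and 0.21.

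All 8 members of the lipid group had a positive log2 fold change in both genotypes, and 4 were called higher in control and 5 in Atg5-knockout mice. That was 50% and 62.5%, where 16.2% and 23.5% of all genes were called higher. Gm2a, the activator protein that presents the ganglioside GM2 to hexosaminidase A (chromosome 11, 55098115 to 55113029), had 510, 496 and 472 CPM in control bone marrow and 1197, 1643 and 1928 CPM in control blood. The Atg5-knockout values were 415, 362 and 446 CPM in bone marrow and 1308, 1845 and 1870 CPM in blood. The tissues were far apart in both genotypes, with log2 fold changes of 1.68 (SE 0.21, edgeR adjusted p = 0.000493) and 2.05 (SE 0.18, edgeR adjusted p = 3.48e-05). Hexa, whose enzyme GM2A assists, had 0.09 and -0.04 and was not called. No CACGTG is in the promoter of Gm2a shown above.

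Lipa, the acid lipase that frees cholesterol from its esters, was called higher with 0.82 (edgeR adjusted p = 0.0383) and 0.54 (edgeR adjusted p = 0.00984). Asah1, the acid ceramidase, was called with 0.68 (edgeR adjusted p = 0.0134) and 0.62 (edgeR adjusted p = 0.00502), and Ppt1, the palmitoyl-protein thioesterase, with 0.62 (edgeR adjusted p = 0.00948) and 0.41 (edgeR adjusted p = 0.015). Npc2, the soluble cholesterol carrier, was called in Atg5-knockout mice alone (0.55, edgeR adjusted p = 0.0116), with 0.52 in control mice (edgeR adjusted p = 0.0578). The 3 remaining genes were not called. Psap, the member with the highest level per kilobase in control bone marrow, had 2177 ± 126 CPM (SD, n = 3) in control bone marrow and 2586 ± 527 CPM (SD, n = 3) in control blood. Grn, the precursor of the granulins, had 0.49 and 0.18, and Smpd1, the acid sphingomyelinase, had 0.20 and 0.10.

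Among the 9 membrane proteins 2 were called higher in control and 6 in Atg5-knockout mice. These are 22.2% and 66.7% of the group, beside 16.2% and 23.5% of all genes. Laptm5 (chromosome 4, 130913125 to 130936141) had 1511, 1273 and 1290 CPM in control bone marrow and 2427, 2722 and 3070 CPM in control blood. In Atg5-knockout mice it had 1214, 1176 and 1497 CPM and 2470, 2821 and 2720 CPM. The level was thus higher in every blood library, with log2 fold changes of 1.0 (SE 0.18, edgeR adjusted p = 0.00309) and 1.06 (SE 0.15, edgeR adjusted p = 0.000482). Cd68, a mucin-like protein used as a macrophage marker (chromosome 11, 69664213 to 69666153), had 53.7, 42.1 and 41.9 CPM in control bone marrow and 135, 88.4 and 76.8 CPM in control blood, a log2 fold change of 1.11 (SE 0.23, edgeR adjusted p = 0.00679). In Atg5-knockout blood it had 113, 75.4 and 50.04 CPM against 51.4, 50.2 and 48.4 CPM in bone marrow. There the tissues overlapped, the log2 fold change was 0.69 (SE 0.25, edgeR adjusted p = 0.0488), and it was 0.34 (edgeR adjusted p = 0.108) without blood replicate 1.

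Lamp1, an abundant glycoprotein of the lysosomal membrane, had 0.33 in control mice (edgeR adjusted p = 0.16) and was called with 0.44 in Atg5-knockout mice (edgeR adjusted p = 0.0356). All 6 blood libraries, at 557 CPM or more, were above all 6 bone marrow libraries, at 538 CPM or less. Its partner Lamp2 was not called and had 0.14 and -0.08. Scarb2, the receptor that brings β-glucocerebrosidase to lysosomes, was called in Atg5-knockout mice (0.37, edgeR adjusted p = 0.028), as were Laptm4a (0.52, edgeR adjusted p = 0.00663) and Cln3, the protein altered in juvenile Batten disease (0.59, edgeR adjusted p = 0.0107). In control mice these 3 had 0.54, 0.16 and 0.13. Exons of Cln3 share 442 bases with Apobr on the other strand, and counting used no strand option. Npc1, the membrane partner of NPC2, had 0.36 and 0.10, and Mcoln1 -0.00 and 0.15.

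In the proton pump 4 of 7 members were called higher in Atg5-knockout mice and 1 in control mice, all of them V0 or accessory subunits. The shares were 57.1% and 14.3%, beside 23.5% and 16.2% of all genes. Atp6v0b, Atp6v0c and Atp6v0d1, parts of the membrane ring and of the stalk that joins it to V1, had log2 fold changes of 0.65, 0.68 and 0.54 in control and of 0.70, 0.63 and 0.57 in Atg5-knockout mice. Atp6v0c was called in both genotypes (edgeR adjusted p = 0.0482 and 0.0388), although its Atg5-knockout tissues overlapped. Atp6v0b and Atp6v0d1 were called in Atg5-knockout mice alone (edgeR adjusted p = 0.00522 and 0.0191). In control mice Atp6v0b had an edgeR adjusted p of 0.0542, and it was called there with DESeq2, RLE factors or the replicate block. Atp6v0b had 181, 211 and 182 CPM in control bone marrow and 203, 355 and 354 CPM in control blood, so that blood replicate 1 lay within the range of bone marrow. Atp6ap1, an accessory subunit, was called in Atg5-knockout mice with 0.83 (SE 0.16, edgeR adjusted p = 0.00235) and had 0.63 in control mice (edgeR adjusted p = 0.0562).

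None of the V1 members was called higher. Atp6v1a, the ATP-splitting subunit, had 116, 119 and 119 CPM in control bone marrow and 120, 94.0 and 103 CPM in control blood. Its log2 fold change was -0.17 in control (edgeR adjusted p = 0.413) and -0.39 in Atg5-knockout mice (SE 0.13, edgeR adjusted p = 0.0333), where it was called lower. Atp6v1b2 had -0.07 and -0.05 and Atp6v1h 0.06 and 0.06, and neither was called. Subunits outside the 47 members did not keep to this division. Of the 11 tested, Atp6v1f of the V1 sector was higher in both genotypes (0.76 and 0.93, edgeR adjusted p = 0.0391 and 0.00138) and Atp6ap2 was lower in both (-0.59 and -0.70, edgeR adjusted p = 0.0311 and 0.00937). In Atg5-knockout mice Atp6v0e and Atp6v1g1 were also higher and Atp6v0a1 and Atp6v1c1 lower. Of the 11, 9.09% were called in each direction in control mice, against 16.2% and 18% of all genes. In Atg5-knockout mice 27.3% were, against 23.5% and 24.1%.

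**Figure D3:**
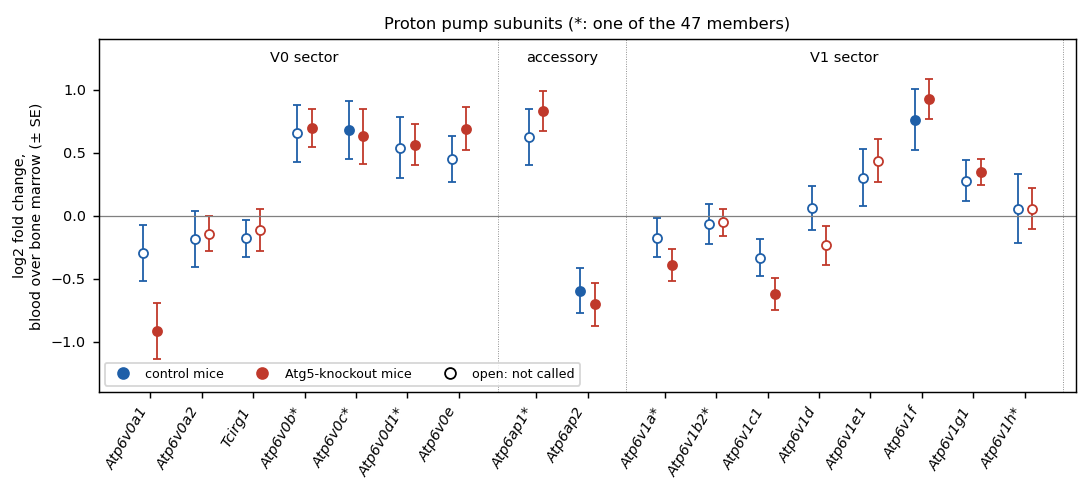
Log2 fold change of blood over bone marrow (vertical axis, bar: standard error) for pump subunits of the V0 sector, accessory subunits and subunits of the V1 sector (horizontal axis), in control (blue) and Atg5-knockout mice (red). Filled points had an adjusted p under 0.05, and asterisks mark members. The V0 members lie between 0.54 and 0.70 and the V1 members between -0.39 and 0.06, while other subunits of both sectors lie on both sides of 0.

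Other lysosomal genes were counted from 6 further lists. Over all genes tested, 16.2% were called higher and 18% lower in control mice, and 23.5% and 24.1% in Atg5-knockout mice. Of the other hydrolases 40% and 45.2% were higher in control and Atg5-knockout mice, and 13.3% and 16.1% lower. Of the other membrane proteins 12% and 16% were higher in control and Atg5-knockout mice, and 4% lower in each genotype. Of 30 other hydrolases tested in control mice, 12 were higher and 4 lower in blood, and of 31 in Atg5-knockout mice, 14 were higher and 5 lower. Acp5, the tartrate-resistant acid phosphatase, was higher in control blood (log2 fold change 2.004, edgeR adjusted p = 8.87e-05), Ctsw in both (5.14 and 5.28, edgeR adjusted p = 0.000127 and 6.26e-06), and Galns, a keratan sulfatase, was lower in Atg5-knockout blood (-1.42, edgeR adjusted p = 2.47e-05). Ctsw is a protease of cytotoxic lymphocytes and had a mean of 22.9 CPM in control blood and 0.644 CPM in control bone marrow. T cell markers summed to between 25.7 and 303 CPM in blood and between 9.59 and 12.3 CPM in bone marrow. The highest sums were those of blood replicate 1, 210 CPM in control and 303 CPM in Atg5-knockout mice, beside medians of 34.0 and 53.7 CPM. Of the T cell markers tested, 2 of 5 were called higher in control and 7 of 8 in Atg5-knockout mice. Whether the Ctsw RNA came from T cells was not tested. Of 25 other membrane proteins 3 were higher and 1 lower in control mice and 4 and 1 in Atg5-knockout mice, led by Slc11a1, a metal transporter of phagocytes (2.24 and 2.41, edgeR adjusted p = 4.11e-05 and 2.32e-05), and Litaf (1.216 and 1.43, edgeR adjusted p = 0.00101 and 0.000605).

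The next lists hold the machinery that sorts and controls lysosomal enzymes. Of the sorting genes 10% were higher in control and 20% in Atg5-knockout mice, and of the regulators 6.67% and 13.3%. Of all genes 16.2% and 23.5% were called higher. The shares called lower were 10% and 20% of sorting genes and 13.3% and 20% of regulators, beside 18% and 24.1% of all genes. Each of these list shares rests on at most 3 genes and is not read as differing from that of all genes. Of 10 sorting genes 1 was higher and 1 lower in control mice, and 2 and 2 in Atg5-knockout mice. Gga3, an adaptor for mannose 6-phosphate receptors, was lower in both (-1.05 and -0.89, edgeR adjusted p = 0.00435 and 0.00316), and Gnptg was higher in control mice (0.56, edgeR adjusted p = 0.0381). Sumf1, which activates the sulfatases, was higher (0.70, edgeR adjusted p = 0.00196) and Igf2r, a mannose 6-phosphate receptor, lower (-1.44, edgeR adjusted p = 0.00255) in Atg5-knockout mice. Among 15 regulators 1 was higher and 2 lower in control mice and 2 and 3 in Atg5-knockout mice. Tfec, a relative of TFEB, was lower in both, at a mean of 26.4 CPM in control bone marrow and 2.13 CPM in control blood (-3.65 and -3.85, edgeR adjusted p = 0.000194 and 9.08e-05). Lamtor3, of the complex that tethers mTORC1 to lysosomes, was lower in both (-1.31 and -0.92, edgeR adjusted p = 0.00291 and 0.000645). Cst3, the cathepsin inhibitor cystatin C, was higher in both (0.71 and 0.81, edgeR adjusted p = 0.0355 and 0.00262). It was the 1 inhibitor called of 7 in control mice, and with Cstb (0.41, edgeR adjusted p = 0.0297) and Stfa2l1 it made 3 of 6 in Atg5-knockout mice.

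Within blood the members did not vary alike. Replicate 1 was the lowest of the 3 blood libraries in both genotypes for 20 members (42.6%), against 21.4% of 14712 genes, and the highest in both for 10 members (21.3%), against 24.3% of genes. The 20 included Gm2a, Ctsd, Ctsh, Man2b1, Neu1, Gusb, Npc2, Laptm5 and the pump members Atp6v0b, Atp6v0d1, Atp6v1h and Atp6ap1. Atp6ap1 had 433, 717 and 753 CPM in control blood and 519, 680 and 724 CPM in Atg5-knockout blood. The 10 were Ctsb, Ctsc, Ctsl, Ctss, Arsb, Sgsh, Lipa, Psap, Cd68 and Atp6v0c. Psap had 3158, 2479 and 2121 CPM in control and 3277, 2653 and 2369 CPM in Atg5-knockout blood. The blood libraries of replicate 1 were those with the most B cell and T cell RNA in each genotype. They also had the lowest sums of eosinophil genes, 25800 CPM in control and 17500 CPM in Atg5-knockout mice, against 30700 CPM or more in the other blood libraries. The sums of neutrophil genes (8050 and 5860 CPM), platelet genes (472 and 89.2 CPM) and genes of cycling cells (120 and 101 CPM) were the highest of each genotype there. The part of these differences in the pattern was not tested.

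**Figure D4:**
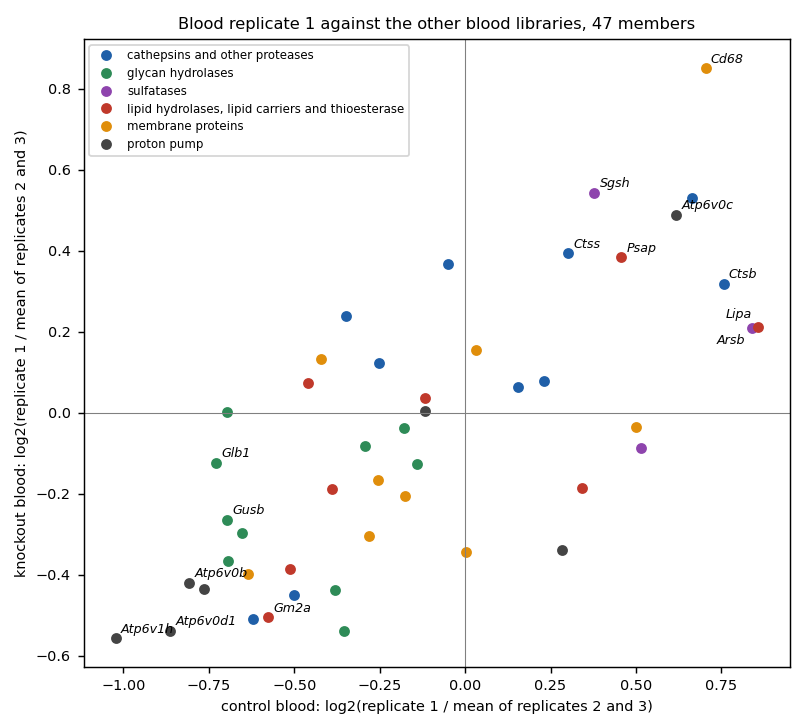
Log2 of the level in blood replicate 1 over the mean of replicates 2 and 3, in control (horizontal axis) and Atg5-knockout mice (vertical axis), with 1 point for each of the 47 members, coloured by role. Pump members such as Atp6v0b and Atp6v1h lie at the lower left and Cd68, Ctsb and Atp6v0c at the upper right.

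Atg5-knockout and control eosinophils were compared within each tissue to see whether genes of the compartment that autophagy feeds differed where an autophagy gene was targeted. In bone marrow no member was called in either direction by edgeR or by DESeq2, where 0.145% of 13781 genes were called higher and 0.203% lower. At an unadjusted p under 0.05, 2 members were higher and 5 lower, and of all 13781 genes 601 were higher and 732 lower. The median log2 fold change of the members was -0.01. The 95% interval, taken from the standard error with a normal quantile and so narrow for 3 libraries a group, lay between -1 and 1 for all 47 members and between -0.5 and 0.5 for 39.

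The lowest p in bone marrow was that of Lgmn, whose 3 Atg5-knockout libraries (18.4, 23.3 and 19.9 CPM) were above the 3 control libraries (15.2, 13.6 and 13.9 CPM), a log2 fold change of 0.50 (SE 0.13, edgeR adjusted p = 0.177). Lipa had 44.3, 54.5 and 54.1 CPM against 40.9, 32.7 and 40.4 CPM, also with no overlap (0.39, SE 0.12, edgeR adjusted p = 0.287). Gm2a, with 415, 362 and 446 CPM against 510, 496 and 472 CPM, lay below its controls (-0.30, SE 0.11, edgeR adjusted p = 0.402). So did Ctsd, with 652, 564 and 723 CPM against 759, 860 and 759 CPM (-0.32, SE 0.12, edgeR adjusted p = 0.409), and Laptm4a, with 123, 120 and 115 CPM against 128, 149 and 147 CPM (-0.27, SE 0.10, edgeR adjusted p = 0.418). None of the 5 passed the threshold. Arsb had an adjusted p of 0.535 with all libraries, and was called higher with a log2 fold change of 0.43 (edgeR adjusted p = 0.0275) with no filter on low counts and of 0.78 (edgeR adjusted p = 0.0174) without control replicate 1.

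In blood no member was called either, by edgeR or by DESeq2, where 0.0371% of 13460 genes were called higher and 0% lower, and 1 member, Arsb, was lower at an unadjusted p under 0.05, as were 199 of all genes, with 148 higher. The median of the members was -0.12. The blood libraries were less alike than those of bone marrow, with a median standard error of the members of 0.22 against 0.11, and the 95% interval lay between -0.5 and 0.5 for 12 of the 47. It lay between -1 and 1 for 46, all but Arsb. Differences smaller than these intervals were not detectable here.

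Arsb had 25.6, 22.0 and 22.2 CPM in Atg5-knockout and 60.4, 24.6 and 42.8 CPM in control blood, overlapping in range (-0.85, SE 0.30, edgeR adjusted p = 1.0). Grn had 434, 419 and 405 CPM against 437, 573 and 629 CPM (-0.36, SE 0.19), and Man2b1 had 2514, 2669 and 2656 CPM against 2808, 3118 and 3758 CPM (-0.29, SE 0.20). In both genes each Atg5-knockout library was below each control library. Lgmn lay above its controls as in bone marrow, with 73.6, 58.0 and 56.1 CPM against 51.3, 51.2 and 55.1 CPM (0.27, SE 0.18). Gaa, the acid α-glucosidase that degrades glycogen, overlapped between genotypes (-0.22, SE 0.18). The adjusted p of these 4 genes was 1.0 (edgeR). The 12 red cell genes were unevenly spread in this comparison, up to 170000 CPM in control and up to 7180 CPM in Atg5-knockout blood, and no member was called without control replicate 1 either.

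**Figure D5:**
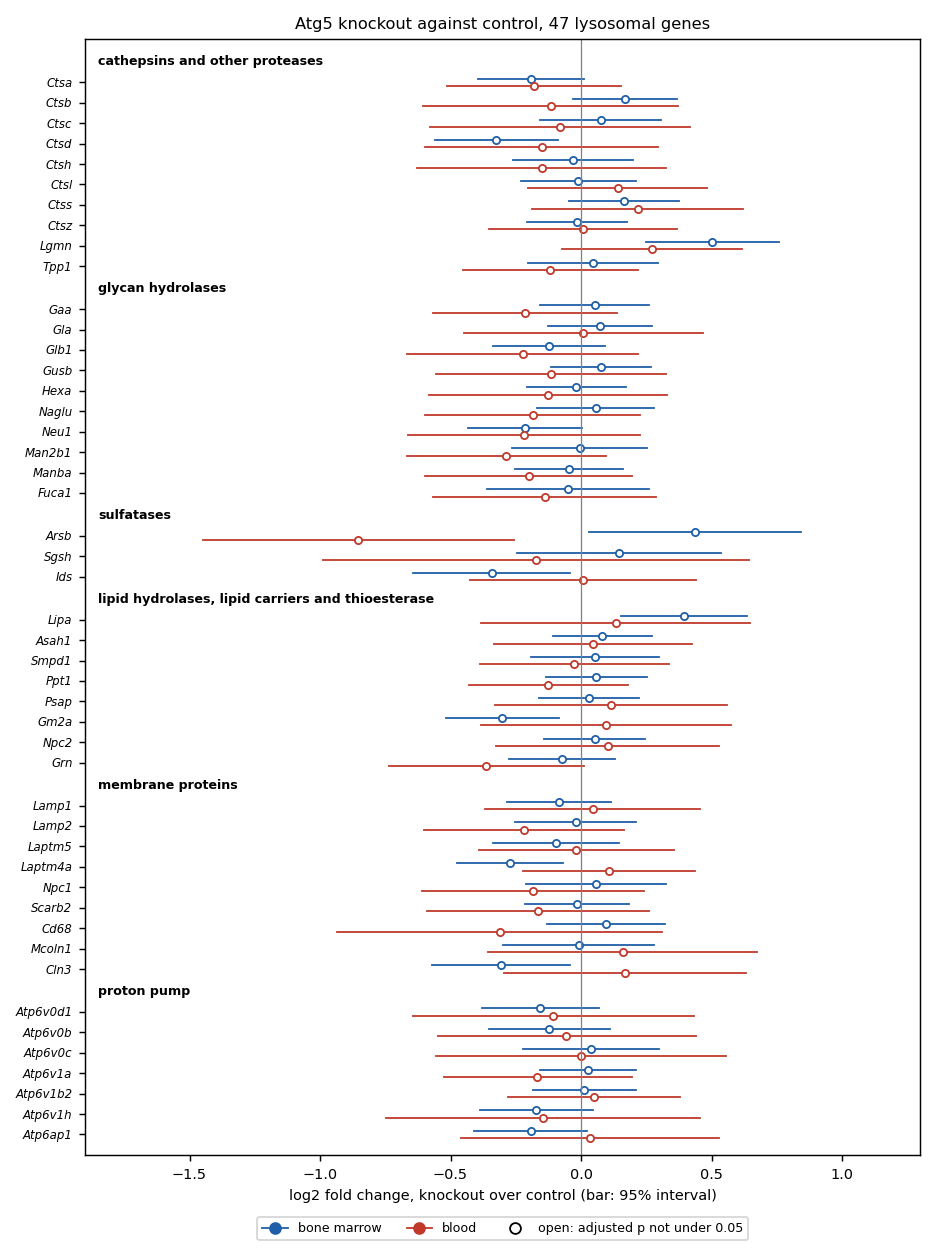
Log2 fold change of Atg5-knockout over control (horizontal axis) for the 47 lysosomal genes, by role, in bone marrow (blue) and blood (red), with 95% intervals. All points are open, as no member had an adjusted p under 0.05. Arsb lies at 0.43 in bone marrow and at -0.85 in blood.

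The knockout effect in blood was then set against that in bone marrow in a fit of all 12 libraries, which equally tests whether the tissue difference differed between genotypes. No member was called, by edgeR or by DESeq2, and 0% of 14712 genes were called in either direction, with 274 genes higher and 466 lower at an unadjusted p under 0.05. Arsb was the member with the lowest p, and its knockout effect was lower in blood by 1.33 on the log2 scale (difference -1.33, SE 0.42, edgeR adjusted p = 0.852). With no filter on low counts the difference was -1.34 and was called (edgeR adjusted p = 0.00295). Over the 17 alternatives the adjusted p of Arsb ran from 0.00295 to 1.0. Laptm4a (0.33, SE 0.18), Grn (-0.34, SE 0.20), Gaa (-0.32, SE 0.19) and Cln3 (0.43, SE 0.29) followed, each with an edgeR adjusted p of 0.942.

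In the 6 further lists no gene was called for the knockout in bone marrow, in blood or for the difference. Atp6v1d, a V1 subunit, had the lowest p of the pump list in both tissues, with a mean of 59.95 CPM in Atg5-knockout and 80.3 CPM in control bone marrow (-0.45, SE 0.11, edgeR adjusted p = 0.157) and of 50.5 and 84.4 CPM in blood (-0.72, SE 0.21, edgeR adjusted p = 1.0). Each Atg5-knockout library was below each control library of its tissue. Galc, which degrades galactosylceramide, had 0.45 in bone marrow (edgeR adjusted p = 0.258), Sort1, a sorting receptor, -0.48 in blood (edgeR adjusted p = 1.0), and Tfeb -0.28 in bone marrow (edgeR adjusted p = 0.516).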

How the data were processed

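RNA from eosinophils of bone marrow and blood was sequenced as single-end reads from stranded mRNA libraries. The authors aligned the reads with HISAT2 2.2.1 and counted them per gene with featureCounts 2.0.1, and deposited raw counts for 12 libraries in 1 table, without normalization. Its header names Ensembl release 92 on GRCm38, whereas the Methods name an annotation on GRCm39, and it gives no option for strand or for reads in several genes. Exon lengths per gene (unit other) came from the same table as deposited. Coordinates are those of the table, on GRCm38.

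The counts were tested here with edgeR 4.0.16 in R 4.3.3, using quasi-likelihood fits, TMM factors and the package's own expression filter (minimum count 10, minimum total 15), with a prior count of 0.125 and Benjamini-Hochberg adjustment over all genes tested. Each comparison was fitted on its 6 libraries, and the difference of the knockout effect on all 12. A call needed an adjusted p under 0.05. CPM used TMM factors over 12 libraries. The alternatives were DESeq2 1.42.0, RLE factors, library size alone, no filter, each library left out, the replicate number as a block, fold thresholds and a fit of all 12 libraries. The fits were tested on simulated data.

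The members and all lists were chosen with earlier results of these data known. The members described in full were the 8 called with the largest differences between control tissues without overlap, and the 5 of lowest p in each knockout comparison. From each further list the 2 genes of lowest p were eligible, and Atp6v0e, Atp6v1g1, Atp6v0a1, Atp6v1c1, Atp6ap2, Cstb, Stfa2l1 and the marker genes were named after their values were seen. Labels give no culture or animal for each library, so p-values measure the spread between these samples. Between genotypes, same-numbered blood libraries departed from their group means alike (correlations 0.595, 0.339 and 0.368). The labels name no pairing, and whether these libraries were paired is not known. The replicate number was therefore used as a block in an alternative fit only. Some genes of the lists were not analysed here.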

Additional observations from a re-analysis of the deposited data

How the results depend on the processing

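Members called higher and lower in blood numbered 8 and 4 in control mice with library size alone, with a median of 0.177, and 15 higher in Atg5-knockout mice, with a median of 0.141. Of all genes, 9.57% and 28.6% were then higher and lower in control mice, and 16.3% higher in Atg5-knockout mice. With a log2 fold change beyond 1 also required, 7 were higher and 1 lower in each genotype, against 9.7% and 12.4% of all genes in control and 12.2% and 14.3% in Atg5-knockout mice. Beyond 2 there were 0 and 0 in control mice, and 1 (Gm2a) and 1 (Arsb) in Atg5-knockout mice. The shares of all genes beyond 2 were 4.38% and 5.19% in control and 5.26% and 6.13% in Atg5-knockout mice. Leaving out 1 library at a time gave 8 to 23 higher, 0 to 1 lower and a median of 0.372 to 0.479 in control mice, and 14 to 23 higher, 2 to 4 lower and a median of 0.32 to 0.424 in Atg5-knockout mice. In control mice 10, 8 and 9 members were higher without bone marrow replicate 1, 2 or 3 (9.87%, 9.34% and 8.21% of all genes). Without blood replicate 1, 2 or 3 they numbered 23, 13 and 13 (19.9%, 14.3% and 14.6%). In Atg5-knockout mice the counts were 16, 14 and 16 without a bone marrow library (16.3%, 15.5% and 17.4%). They were 22, 19 and 23 without a blood library (25.8%, 20.3% and 23.1%). The reason for these differences was not tested. For the knockout, 0 members were called in bone marrow except for 1, Arsb, with no filter, and 0 to 1 were higher when 1 library was left out. In blood 0 were called under each alternative. For the difference between tissues, 1 member, Arsb, was called lower with no filter, and the median was -0.024 with library size alone. Apart from the fold thresholds, 9 members called in control mice and 13 called in Atg5-knockout mice lost their call under at least 1 of 12 alternatives. In control mice Atp6v0c, Fuca1, Lipa and Neu1 did so under 6, and Arsb under 1. In Atg5-knockout mice Atp6v0c and Lamp1 did so under 8, Cd68, Ctsb and Scarb2 under 7, and Atp6v0d1 under 6. The cause was not tested.

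With the replicate number as a block, 19 members were higher and 1 lower in blood of control mice and 21 and 4 in Atg5-knockout mice. Of all genes, 16.6% were then higher and 19.3% lower in control mice, and 20.2% and 22.5% in Atg5-knockout mice. In blood 0 members were called for the knockout under the block, with a median of -0.081, and 0 in bone marrow and for the difference. The block changed no call of a member for the knockout. In bone marrow the correlations between genotypes of same-numbered libraries were -0.196, -0.15 and -0.004, and between tissues they ran from -0.117 to 0.159. Control replicates 1 and 2 and Atg5-knockout replicate 3 matched the same number best between tissues, and the others did not. Whether these libraries share more than a number cannot be told from these values.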

Other observations

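Arsb, chosen here after its values were seen, had spread control libraries in both tissues. In control mice replicate 1 was the highest and replicate 2 the lowest in each tissue, with 158 and 71.6 CPM in bone marrow and 60.4 and 24.6 CPM in blood. Neither the labels nor the Methods say whether a number marks the same animal in both tissues. Its knockout effect was not called as differing between blood and bone marrow with the filter on low counts (edgeR adjusted p = 0.852, and 0.301 with the replicate block).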
